A study of Boehmeria nivea with 6 samples.

Results

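Leaves of a ramie cultivar and of a wild accession were compared to find the genes whose messenger RNA level differed between these 2 varieties in leaf while staying alike in root and in stem. Ramie (Boehmeria nivea) is a perennial crop of the nettle family grown for the bast fibres of its stem, and its leaf is the main photosynthetic organ. The cultivar was ZSZ1, and it was set against QYZM, an accession of wild tenacissima ramie. RNA came from leaves, roots and stems of 30-day-old plants, with 1 library for each organ of each variety and 6 libraries in all; no allele, transgene or treatment is named for any of them. The number of plants behind a library is not given in the sources used here.

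Genes were chosen from the values themselves. Each library was first scaled by median of ratios. That is, it was divided by the median of its values relative to the geometric mean of the 6 libraries, over genes above 0 in all 6. A gene was compared when it then had at least 1 FPKM (fragments on a gene scaled by its length and by library size) in ZSZ1 leaf or QYZM leaf. It was kept when FPKM + 1 was at least 4-fold apart between the leaf libraries and under 2-fold apart both between the root libraries and between the stem libraries. Of 20693 genes in the table, 14275 were compared, 500 were at least 4-fold apart in leaf, and 161 of these were alike in root and stem. All levels below are scaled FPKM, and all differences are ZSZ1 minus QYZM on the log2(scaled FPKM + 1) scale. With 1 library against 1 there is no replicate check of a leaf difference and no test, and the values that chose the 161 genes are given as a description. The labels name no batch, and whatever else differs between the 2 leaf libraries cannot be told apart from variety. In whole organs, fewer cells of a type and less RNA per cell cannot be told apart either.

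What sets a leaf apart from root and stem at the level of RNA is mostly the transcripts of the photosynthetic apparatus and of leaf metabolism, which take a large part of a leaf library and little of a root library. A variety difference found in a leaf and in no other organ can concern a gene that is low in root and stem, or a gene that is expressed there as well. The genes were therefore counted by their root and stem levels too. The table names its genes by identifier alone, so no role can be given to any gene here and no leaf marker gene could be looked up. The organ labels were checked by the correlation of log2(scaled FPKM + 1) over the 14275 compared genes. The leaf libraries correlated with each other at 0.891 and with root and stem libraries at 0.575 to 0.723. Root and stem were less clearly apart, since QYZM root correlated with QYZM stem at 0.888 and with ZSZ1 root at 0.885, and ZSZ1 stem correlated with QYZM stem at 0.921. This is across genes, which are not independent replicates.

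Of the 161 genes, 84 were higher and 77 lower in ZSZ1 leaf. Among all compared genes, 3.5% were at least 4-fold apart in leaf, 1.39% higher and 2.12% lower in ZSZ1. The balance depended on the scaling. On the values as deposited the same rule gave 38 higher and 95 lower genes, 28.6% higher against 52.2% after scaling, and 97 genes were chosen both ways. The scaling divided ZSZ1 leaf by 0.601 and QYZM leaf by 0.895, which adds 0.57 to the log2 ratio of the leaf libraries before the 1 is added. On the log2(FPKM + 1) scale the shift is smaller for low values and can be downward. Column totals as deposited were 306497 in ZSZ1 leaf and 433435 in QYZM leaf, and 368145 to 390460 in the other libraries.

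The higher genes had a median leaf difference of 2.51 and a largest one of 6.61. The lower genes had a median of -2.49 and a largest one of -4.42. Within the set the leaf differences of the higher genes reached further, with 15 of 84 at least 16-fold apart and 5 at least 64-fold. Of the 77 lower genes, 7 were at least 16-fold and 0 at least 64-fold apart. The 64-fold count depended on the scaling. On the values as deposited, none of these 5 higher genes was 64-fold apart. Bnt08G012154 stood at 5.93, Bnt01G000023 at 5.90, BntUnG020480 at 5.78 and Bnt10G015612 at 5.61. The other, Bnt01G000027, had deposited values of 69.4 FPKM in ZSZ1 leaf and 0.639 FPKM in QYZM leaf. The leaf differences of all 14275 compared genes had a median of 0.05 and ran from -11.6 to 6.61. Of these genes 64 were at least 16-fold and 15 at least 64-fold apart, so the further reach upward is not one of the compared genes as a whole. In ZSZ1 leaf the 84 higher genes ran between 3.11 and 326 FPKM with a median of 10.9, and in QYZM leaf between 0 and 48.3 FPKM with a median of 0.228. The 77 lower genes ran between 0 and 32.4 FPKM in ZSZ1 leaf with a median of 0.324, and between 3.02 and 225 FPKM in QYZM leaf with a median of 8.23. A level of 10 FPKM was reached by 45 of the 84 higher genes in ZSZ1 leaf and by 34 of the 77 lower genes in QYZM leaf. Together the higher genes made up 0.459% of the scaled total in ZSZ1 leaf and 0.0323% in QYZM leaf, and the lower genes 0.0205% and 0.238%.

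**Figure D1:**
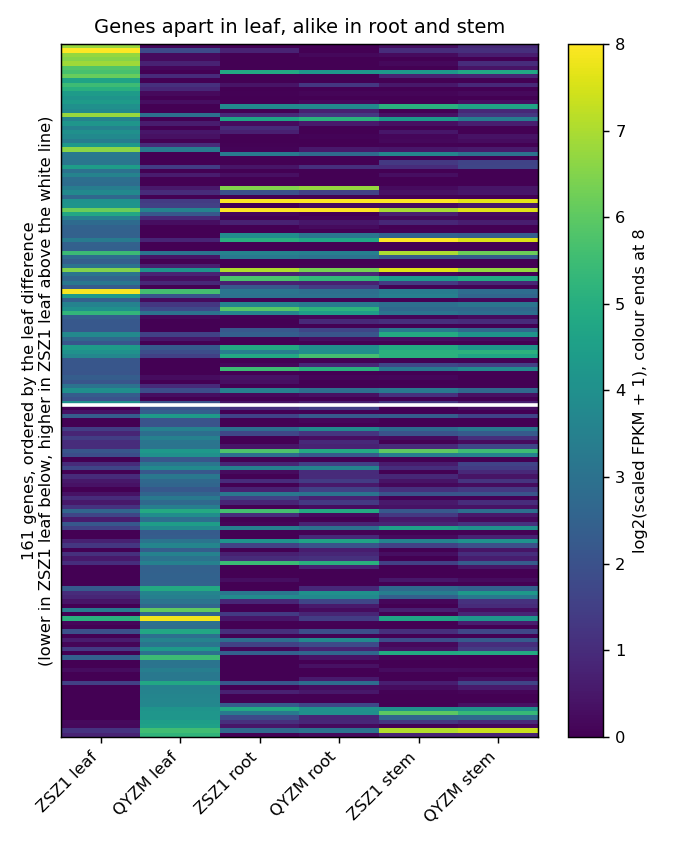
Level of each of the 161 genes (rows, ordered by leaf difference) in the 6 libraries (columns), as log2(scaled FPKM + 1) by colour. The 84 genes above the white line are brighter in ZSZ1 leaf, the 77 below it in QYZM leaf, and the root and stem columns of the varieties look alike within a row, as the choice of genes requires.

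Many genes were listed at 0 in the leaf library where they were low. Of the higher genes, 32 were listed at 0 in QYZM leaf, and their ZSZ1 leaf level ran between 3.11 and 49.9 FPKM with a median of 4.65. Of the lower genes, 31 were listed at 0 in ZSZ1 leaf, with 3.02 to 17.5 FPKM and a median of 5.5 in QYZM leaf. The number of reads behind a value is not known, so what a listed 0 allows cannot be stated, and the log2 difference of such a gene depends on the added 1. A total of 13 higher genes had a value above 0 in ZSZ1 leaf alone of the 6 libraries, and 11 lower genes had one in QYZM leaf alone. The shares of all compared genes with such values are not given here, so these counts describe the set only.

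The thresholds cut through a continuous range. The 3 genes nearest the leaf threshold from inside differed by 2.01, 2.01 and 2.02 on the log2 scale, and the 3 nearest from outside by 1.99, 1.99 and 1.99. At the root and stem limit of 1 on the log2 scale the nearest genes inside stood at 0.98, 0.98 and 0.99 and those outside at 1.0004, 1.0012 and 1.0031. Of the 161 genes, 88 were under 6-fold apart in leaf and 34 had a root or stem difference of at least 0.8.

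Most of the genes 4-fold apart in leaf were also apart in another organ. Of the 500, 294 were at least 2-fold apart in the same direction in root or stem, 29 in the opposite direction, and 16 in the same direction in one of these organs and the opposite direction in the other. The 161 genes that were alike elsewhere were 32.2% of the 500. The direction was split unevenly among the kinds. Genes that differed the same way in root or stem numbered 88 higher and 206 lower in ZSZ1 leaf, beside the 84 and 77 of the leaf-restricted set. Turning the rule to the other organs gave 284 genes restricted to root, or 45.6% of the 623 at least 4-fold apart there, and 97 restricted to stem, or 22.9% of 423. Among the genes compared in each organ, 4.33% were at least 4-fold apart in root (1.79% higher and 2.54% lower in ZSZ1) and 2.97% in stem (1.08% higher and 1.89% lower). Of the root-restricted genes 154 were higher and 130 lower in ZSZ1, and of the stem-restricted genes 39 were higher and 58 lower. These counts come from single libraries and their difference was not tested.

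**Figure D2:**
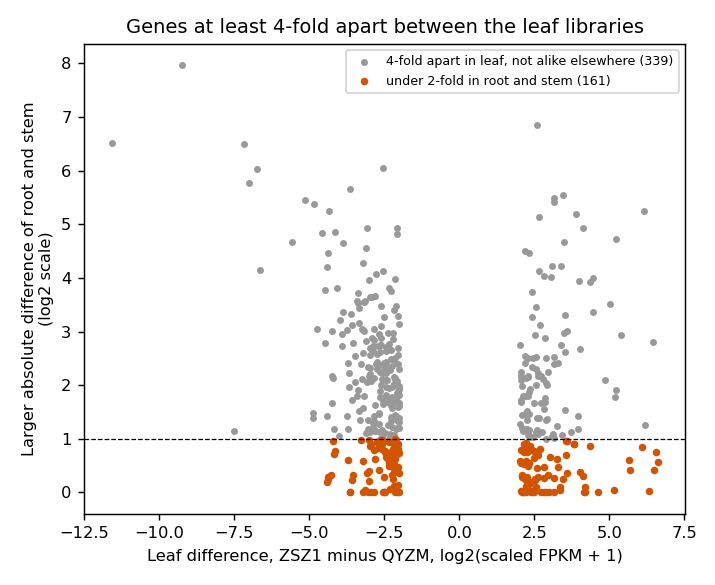
Leaf difference (ZSZ1 minus QYZM, log2 scale) against the larger absolute difference of root and stem for the 500 genes at least 4-fold apart in leaf, 1 point per gene. The 161 genes under the dashed line are those under 2-fold in both other organs, and the gap in the middle is the 4-fold threshold.

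The genes were grouped by their root and stem levels. For 81 of the 161 genes all 4 root and stem libraries were under 1 FPKM, which was so for 4.37% of the compared genes. A gene at so low a level is under 2-fold apart in root and stem by the added 1 alone, so its likeness there says little. These 81 genes were 46 of the higher and 35 of the lower ones. A further 44 genes had at least 1 FPKM in all 4 root and stem libraries, 24 higher and 20 lower in ZSZ1 leaf, and only for these did the likeness rest on values of 1 FPKM or more in every root and stem library. The other 36 genes lay between. The 44 genes were 27.3% of the 161, against 80.7% of the compared genes, and the 36 were 22.4%, against 15.0%. With a mean of at least 1 FPKM over root and stem required, the rule kept 62 genes, 30 higher and 32 lower.

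The organ in which each gene was highest was found within each variety. In the variety whose leaf was the higher one, leaf was the highest organ for 64 of the 84 higher genes (ZSZ1) and for 64 of the 77 lower genes (QYZM). The remaining higher genes were highest in root for 10 and in stem for 10, and the remaining lower genes in root for 7 and in stem for 6. In the other variety leaf led for 21 of the 84 higher genes (QYZM) and for 20 of the 77 lower genes (ZSZ1). Among all compared genes leaf was the highest organ for 37.6% in ZSZ1 and for 42.6% in QYZM. On the mean of both varieties 123 of the 161 genes were highest in leaf, 21 in root and 17 in stem, beside 40.9%, 33.5% and 25.5% of the compared genes. A high level in 1 leaf library is what chose the genes, so a lead of leaf in that variety is in part fixed by the choice.

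Leaf was the highest organ in both varieties for 41 genes, or 25.5% of the 161, against 29.3% of all compared genes. It was the highest in 1 variety for 87 genes, or 54.0%, and in neither for 33, or 20.5%. Among all compared genes these shares were 21.6% and 49.1%, and among the 500 genes 4-fold apart in leaf 50.6% and 29.8%. Of the 87, 17 higher genes were listed at 0 in all 3 QYZM organs and 18 lower genes in all 3 ZSZ1 organs, so that no organ was the highest there. These were 10.6% and 11.2% of the 161, against 0.553% and 0.609% of the compared genes. Organ ranks of a variety near 0 carry little: 32 of the 63 higher genes that were not highest in leaf in QYZM were under 1 FPKM in all 3 QYZM organs, and 27 of the 57 such lower genes were under 1 FPKM in all 3 ZSZ1 organs.

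Within the 41 genes highest in leaf in both varieties, Bnt08G012154 had the largest positive difference. It stood at 326 FPKM in ZSZ1 leaf and at 2.5 FPKM in QYZM leaf, with 0.691 FPKM in ZSZ1 root, a listed 0 in QYZM root, 1.01 FPKM in ZSZ1 stem and 1.13 FPKM in QYZM stem (leaf difference 6.55). Its ZSZ1 leaf value was the highest leaf level among the 161 genes, and the other 5 libraries were all low. Bnt10G015612 was at 92.6 FPKM in ZSZ1 leaf and 0.183 FPKM in QYZM leaf, was listed at 0 in both roots and in QYZM stem, and had 0.0219 FPKM in ZSZ1 stem (6.31). This gene was close to 0 in every library but ZSZ1 leaf. On the lower side, Bnt12G017515 had 0.745 FPKM in ZSZ1 leaf and 36.4 FPKM in QYZM leaf, and no root or stem library was above 0.753 FPKM (-4.42). Bnt10G015283 had 0.213 FPKM in ZSZ1 leaf and 9.70 FPKM in QYZM leaf, with listed values of 0 in both roots, 0.204 FPKM in ZSZ1 stem and 0.172 FPKM in QYZM stem (-3.14). For this gene leaf led in ZSZ1 by a margin of 0.213 over 0.204 FPKM.

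Within the 87 genes highest in leaf in 1 variety, the largest differences had the same shape, with 1 leaf library far above the other 5. Bnt01G000023 was at 108 FPKM in ZSZ1 leaf and 0.112 FPKM in QYZM leaf, was listed at 0 in both roots, and had 0.235 FPKM in ZSZ1 stem and 0.842 FPKM in QYZM stem (6.61). BntUnG020480 was at 105 FPKM in ZSZ1 leaf and 0.186 FPKM in QYZM leaf, and no root or stem library was above 0.563 FPKM (6.48). Both owe their place in this class to QYZM stem, which was the highest QYZM organ while under 1 FPKM. Bnt06G008982 was at 0.138 FPKM in ZSZ1 leaf and 22.7 FPKM in QYZM leaf, with 0.0344 to 0.413 FPKM elsewhere (-4.38). BntUnG020375 was at 0.143 FPKM in ZSZ1 leaf and 21.4 FPKM in QYZM leaf, with 1.16 FPKM in ZSZ1 root, 0.841 FPKM in QYZM root, 1.44 FPKM in ZSZ1 stem and 0.953 FPKM in QYZM stem (-4.29). In ZSZ1 the leaf was thus the lowest of the organs for this gene, and in QYZM the highest.

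Of the 33 genes highest in leaf in neither variety, the 4 with the largest leaf differences had a different shape, with root and stem libraries at 5.81 FPKM or more and 1 leaf library at or near 0. Bnt13G019274 was at 15.3 FPKM in ZSZ1 leaf and was listed at 0 in QYZM leaf, with 12.8 FPKM in ZSZ1 root, 13.1 FPKM in QYZM root, 32.5 FPKM in ZSZ1 stem and 24.6 FPKM in QYZM stem. Bnt08G012990 was at 11.1 FPKM in ZSZ1 leaf and was listed at 0 in QYZM leaf, with 24.2 FPKM in ZSZ1 root, 33.6 FPKM in QYZM root, 18.8 FPKM in ZSZ1 stem and 9.16 FPKM in QYZM stem. No fold is given for these, because the QYZM leaf value is a listed 0. Among the lower genes, Bnt03G004956 was at 1.24 FPKM in ZSZ1 leaf and 46.2 FPKM in QYZM leaf, with 5.81 FPKM in ZSZ1 root, 7.31 FPKM in QYZM root, 135 FPKM in ZSZ1 stem and 164 FPKM in QYZM stem (-4.39). It was the most abundant of the lower genes in stem, and the stem level of the varieties differed by -0.28. Bnt06G009987 was listed at 0 in ZSZ1 leaf and had 17.3 FPKM in QYZM leaf, with 8.87 FPKM in ZSZ1 root, 15.3 FPKM in QYZM root, 61.7 FPKM in ZSZ1 stem and 40.5 FPKM in QYZM stem.

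**Figure D3:**
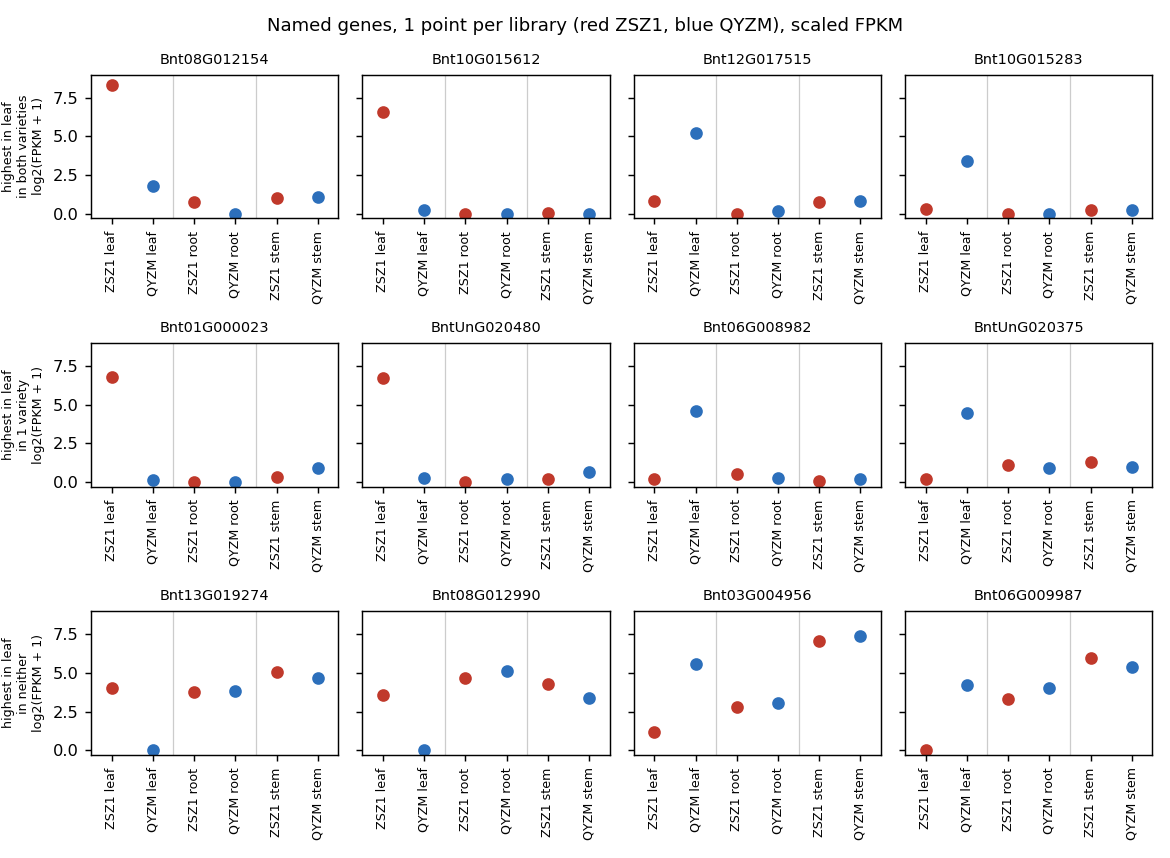
Level of the 12 genes named by rule in each of the 6 libraries, as log2(scaled FPKM + 1), 1 point per library, ZSZ1 in red and QYZM in blue. In the upper and middle rows a single leaf library stands above the other 5, and in the lower row a single leaf library stands at or near 0 (1.24 FPKM for Bnt03G004956) while root and stem libraries do not.

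To put this in numbers for the whole set, each leaf library was set against the mean log2(scaled FPKM + 1) of the 4 root and stem libraries, and a departure of 2-fold or more was counted. Among the 84 higher genes, ZSZ1 leaf was above root and stem for 63 and QYZM leaf was below for 23, with 2 genes in both counts. Among the 77 lower genes, QYZM leaf was above root and stem for 62 and ZSZ1 leaf was below for 19, with 4 genes in both counts. Across the set the more common departure was thus a leaf level above root and stem, in the variety with the higher leaf. The rule fixes this in part. Leaf libraries 4-fold apart cannot both be under 2-fold from the same reference. For the 81 genes under 1 FPKM in all 4 root and stem libraries, the added 1 keeps any leaf from being 2-fold below. In 7 higher and 5 lower genes both leaf libraries were above root and stem, by unequal amounts.

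The 44 genes with at least 1 FPKM in all 4 root and stem libraries showed the opposite shape. Here QYZM leaf was below root and stem for 21 of the 24 higher genes and ZSZ1 leaf was below for 15 of the 20 lower genes, while ZSZ1 leaf was above for 4 of the 24 and QYZM leaf above for 5 of the 20. Only a gene with measurable root and stem levels can have a leaf below them, so the shape is in part set by level. The 24 higher genes had a median of 15.0 FPKM in ZSZ1 leaf and 1.77 FPKM in QYZM leaf, beside 13.5 FPKM in ZSZ1 root, 14.4 FPKM in QYZM root, 18.6 FPKM in ZSZ1 stem and 14.6 FPKM in QYZM stem. The 20 lower genes had a median of 1.16 FPKM in ZSZ1 leaf and 12.2 FPKM in QYZM leaf, beside 8.0 FPKM in ZSZ1 root, 11.6 FPKM in QYZM root, 5.16 FPKM in ZSZ1 stem and 8.30 FPKM in QYZM stem. The medians of QYZM leaf for the higher genes and of ZSZ1 leaf for the lower genes were thus below all root and stem medians. For the higher genes the ZSZ1 leaf median lay among the root and stem medians. For the lower genes the QYZM leaf median lay above them all. These medians did not hold gene by gene. Besides the 4 and 5 genes with a leaf 2-fold or more above root and stem, others had both leaf libraries below. Both were 2-fold or more below root and stem for 6 of the 24 higher and 2 of the 20 lower genes. Of these 44 genes, 7 higher ones were listed at 0 in QYZM leaf and 3 lower ones in ZSZ1 leaf.

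**Figure D4:**
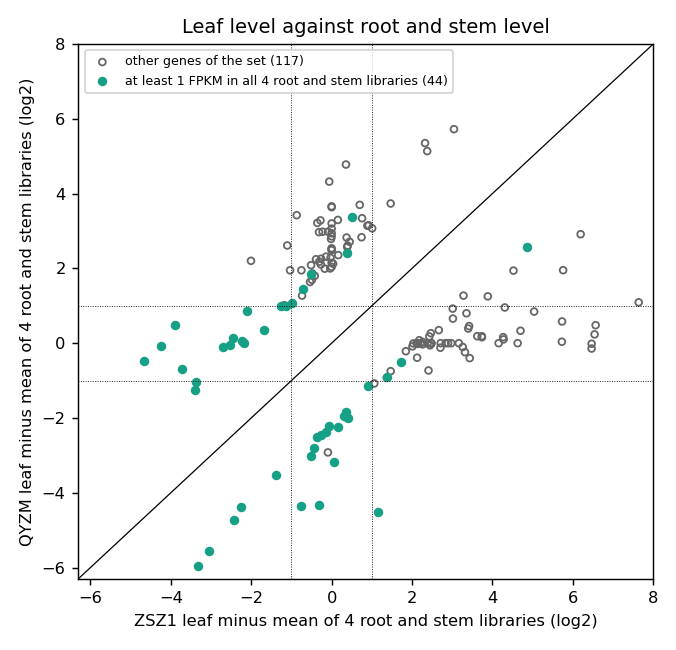
Each of the 161 genes by its ZSZ1 leaf level (horizontal) and QYZM leaf level (vertical), both as log2 differences from the mean of the 4 root and stem libraries, with dotted lines at 2-fold and a solid line where the leaf libraries are equal. The 44 filled points, genes with at least 1 FPKM in all root and stem libraries, lie mostly left of or below the dotted lines, and the 117 open points mostly right of or above them.

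The gene of this kind with the highest ZSZ1 leaf level beside a listed 0 in QYZM leaf, picked out after its values were seen, was at 49.9 FPKM in ZSZ1 leaf, with 27.1 FPKM in ZSZ1 root, 17.6 FPKM in QYZM root, 18.4 FPKM in ZSZ1 stem and 26.9 FPKM in QYZM stem. A lower gene of like shape, also picked out by its values, was listed at 0 in ZSZ1 leaf and had 16.8 FPKM in QYZM leaf, with 27.1 FPKM in ZSZ1 root, 15.5 FPKM in QYZM root, 15.2 FPKM in ZSZ1 stem and 15.7 FPKM in QYZM stem. In each of them 1 leaf library was listed at 0 and the other 5 of the 6 libraries held the gene at 15.2 FPKM or more. These 5 were not all alike, since ZSZ1 leaf lay 1.14 above the root and stem mean on the log2 scale for the first gene.

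Some genes higher in ZSZ1 leaf were abundant in root or stem. The most abundant of them, likewise picked out after its values were seen, had 72.9 FPKM in ZSZ1 leaf and 11.0 FPKM in QYZM leaf, with 4483 FPKM in ZSZ1 root, 2761 FPKM in QYZM root, 123 FPKM in ZSZ1 stem and 194 FPKM in QYZM stem. Genes were taken that had at least 50 FPKM in both roots and a mean leaf level of at most 5% of the mean root level. These 21 root genes stood at a median of 2.40% of their root level in ZSZ1 leaf and 0.613% in QYZM leaf, with a median leaf difference of 0.27. Of the 21, 14 reached 1 FPKM in a leaf library and could be in the set, and 2 of these were among the 84 higher genes and 0 among the 77 lower ones. The 84 higher genes were 0.588% of all compared genes. The 21 stem genes chosen alike stood at a median of 1.58% of their stem level in ZSZ1 leaf and 2.08% in QYZM leaf. Their median leaf difference was 0. Of the 17 that were compared in leaf, 2 were among the higher and 0 among the lower genes. Bnt01G001730 is in both counts, and the other higher gene of the root count is the most abundant gene described above. The root and stem counts are therefore not separate results. Whether root or stem RNA in a leaf library has a part in these leaf differences was not tested.

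Within the limits of the rule, root and stem differences leaned the same way as leaf among the lower genes. Of the 77, 45 were lower and 18 higher in ZSZ1 root, with 14 equal, and the median root difference was -0.19. In stem 47 were lower and 16 higher, with a median of -0.11. The 84 higher genes showed no such lean, with 31 higher and 30 lower in ZSZ1 root and 36 higher and 30 lower in ZSZ1 stem, and medians of 0 in both. The compared genes had medians of -0.02 in root and 0.03 in stem.

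The identifiers carry 1 of 14 numbered prefixes or the prefix Un, and the set was not spread evenly over them. Of the compared genes 307 had the prefix Un, or 2.15%, and 18 of the 84 higher genes did, or 21.4%, beside 3 of the 77 lower genes. As a share of the compared genes, the 161 made up 6.84% under Un and 1.0% under the numbered prefixes together, which ranged between 0.726% and 1.41%. For the higher genes the shares were 5.86% and 0.473%, and for the lower genes 0.977% and 0.53%. Genes at least 4-fold apart in leaf, whatever their root and stem difference, were also more frequent under Un. They made up 9.45% of the compared genes there and 3.37% under the numbered prefixes. Without the Un identifiers, an alternative added after seeing the data, 140 genes remained, 66 higher and 74 lower. What the prefix stands for is not given in the sources used here.

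**Figure D5:**
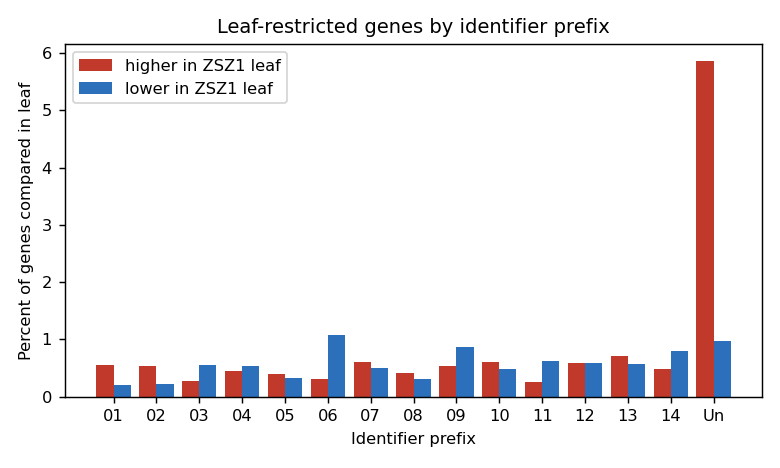
Genes of the set that were higher (red) or lower (blue) in ZSZ1 leaf, as a percent of the genes compared in leaf under each identifier prefix. Un stands at 5.86% for the higher genes, while every numbered prefix is under 1% for them.

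A stretch of Un identifiers, numbered 20460 to 20502, held 11 of the 18. It was picked out after the values were seen, as the longest run of compared Un genes at least 2-fold higher in ZSZ1 leaf with no more than 1 other gene between neighbours. It has 43 identifiers in the table, of which 17 were compared, and 16 of these 17 were at least 2-fold higher in ZSZ1 leaf while the remaining one was a lower gene of the set. The run was chosen on these leaf differences, so their size is a description. In ZSZ1 leaf the 11 genes ran between 4.25 and 107 FPKM with a median of 20.0, and in QYZM leaf between 0 and 9.11 FPKM with a median of 0.219. No root or stem library of either variety had any of them above 1.51 FPKM. Summed, the 11 came to 479 FPKM in ZSZ1 leaf and 18.6 FPKM in QYZM leaf, and to 2.26 to 5.73 FPKM in the root and stem libraries.

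Neighbouring identifiers were counted over the whole set. In 9 pairs of its genes the numbers followed each other directly, 5 of them under Un. The leaf difference had the same direction in 7 pairs and opposite directions in 2. Some of the Un pairs lie in the stretch above, which was chosen on its leaf differences, so they are no separate result. No such share is given here for all compared genes. In a pair with the prefix 14, the first gene was listed at 0 in ZSZ1 leaf and had 11.6 FPKM in QYZM leaf, and the next had 23.7 FPKM in ZSZ1 leaf and was listed at 0 in QYZM leaf. Both were listed at 0 in every root and stem library, so each was seen in a single leaf library. In a pair under Un, the first gene was at 43.8 FPKM in ZSZ1 leaf and 1.17 FPKM in QYZM leaf, and the next was listed at 0 in ZSZ1 leaf and had 4.08 FPKM in QYZM leaf. Whether reads were shared between such neighbours in the authors' counting cannot be read from these values.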

How the data were processed

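The authors deposited FPKM values for 6 libraries in 1 table. Bowtie2 and RSEM appear in the submitters' processing notes, with no version and no stated use. Assembly, gene models, strand handling and read counts are not given in the sources consulted. Depth is therefore unknown, and no level is given an interval or a detection limit. Scale factors were computed by median of ratios from the 14813 genes above 0 in all 6 libraries, and every column was divided by its factor. The pseudocount was 1 and the minimum 1 FPKM in either leaf library; at 4-fold on the FPKM + 1 scale the higher leaf library has at least 3 FPKM, so that minimum removes no gene. Organ classes used the highest of the 3 scaled values within a variety, with none where all 3 were 0. No test was run, since each group has 1 library. Named by rule were, in each of 3 organ classes, the 2 most positive and the 2 most negative leaf differences. The members, lists and rules were chosen with earlier results of these data known. Computations used Python 3.11.15, numpy 2.4.6 and pandas 2.3.3, with matplotlib 3.10.9 for figures. The alternatives are other pseudocounts, minimums, scalings, fold limits and a root and stem minimum.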

Additional observations from a re-analysis of the deposited data

Results flagged for a closer look

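A total of 15 genes were at least 4-fold apart between the leaf libraries and at least 4-fold apart in the opposite direction between the root or the stem libraries, 11 of them higher and 4 lower in ZSZ1 leaf. They are outside the 161 genes described above, and were picked out because the variety difference ran in opposite directions in 2 organs. That difference was not tested, since each organ of each variety had 1 library.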

How the results depend on the processing

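The leaf-restricted genes numbered 161 as reported (84 higher and 77 lower in ZSZ1 leaf, 41 highest in leaf in both varieties) and were 32.2% of the 500 that passed the leaf threshold, with a 95% exact binomial interval of 28.1% to 36.5% that covers the counting of genes alone. A pseudocount of 0.1 gave 1063 genes apart in leaf and a share of 20.3%. A pseudocount of 5 gave 62 genes (28 higher, 34 lower), 140 apart in leaf and 44.3%. The values as deposited gave 38 higher genes, 25 highest in leaf in both varieties and 26.7%. A total of 1000000 per library gave 25 highest in leaf in both varieties and 24.4%. Median-of-ratios factors from each organ pair alone gave 51 lower genes, 21 highest in leaf in both varieties and 27.7%. A leaf threshold of 2.5-fold gave 476 genes (221 higher, 255 lower, 144 highest in leaf in both varieties) of 1156 apart, or 41.2%, and 8-fold gave 49 (29, 20 and 12) of 165. A root and stem limit of 1.5-fold gave 94 genes (37 lower, 26 highest in leaf in both varieties) and 18.8%, and 3-fold gave 249 (129 lower) and 49.8%. A root and stem mean of at least 1 FPKM gave 62 genes (30 higher, 32 lower, 6 highest in leaf in both varieties). They were 12.4% of all 500, because this minimum was put on the leaf-restricted genes and not on the 500. The share among genes that meet the minimum was not computed. Looser and stricter thresholds change the counts by their construction; for the scalings and pseudocounts the cause was not tested. The minimum of 5 FPKM, no minimum, quantile normalization and leaving out the Un identifiers moved none of these counts by over 1.5 times. Of the reported genes, 93 were kept at a pseudocount of 0.1, 34 at 5, 114 with a total of 1000000 and 142 with quantile normalization. The leaf differences of the 12 genes named by rule kept their sign under every alternative that held the gene (the 2 Un genes are missing without the Un identifiers), which the size of these differences largely fixes. Their size moved most with the pseudocount: at 5, Bnt10G015283 (-1.50) and Bnt08G012990 (1.68) were under the leaf threshold of 2, and Bnt06G009987 ran between -7.45 and -2.16. No paired analysis was possible because each group has 1 library and no test was run.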
